A study of Mus musculus with 8 samples.

Results

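The 18415 peaks of the only Chd8 chromatin immunoprecipitation (ChIP-seq) library were set against the mock and the input that belong to it. Peaks that touched a mock peak by at least 1 bp were dropped, which removed 46 peaks, and the other 18369 were described here, out of 409768 peaks in the 8 lists of the series. Of the 18369 peaks, 10956 touched no input peak and are called input-free, and 7413 touched at least 1 input peak and are called input-touching. All 8 libraries came from O4-positive cells, sorted with magnetic beads from the cortex and corpus callosum of wild-type mice at postnatal day 7 and called oligodendrocyte precursor cells (OPCs) in the labels. The Chd8 library was made with a Bethyl anti-Chd8 antibody and the mock with rabbit IgG, and the input had no antibody. The mock was shared with Chd7 replicate 2, and the input, numbered 3 of 3, was assigned to Chd8 alone. The extraction notes name the O4 antibody in place of the Chd8 antibody, and the track names inside the files would exchange inputs 2 and 3; the labels of each sample were followed. O4 marks both precursors and immature oligodendrocytes, and the sources used here do not give the number of animals behind the library. With 1 library on each side there is no replicate error and no test: shares carry 95% Clopper-Pearson (exact binomial) intervals for the counting of peaks or genes and nothing else. Since no read counts are listed, depth is unknown.

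Chd8 is an ATP-dependent chromatin remodeler of the CHD family, which moves nucleosomes and is known to occupy many active promoters. It was first studied as a partner of beta-catenin and p53 that holds back their target genes together with linker histone H1, and loss of one copy of the human gene is a well-established cause of autism. In the oligodendrocyte lineage it works with the related remodeler Chd7 and with lineage factors such as Olig2 and Sox10. An input library holds sheared chromatin without enrichment. A mock library holds what an unspecific antibody pulls down.

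Promoters of 8 genes are printed as examples, chosen by fold or as lineage genes. Sfswap and Cwc27 were among the genes with the highest input-free folds at gene ends, and Kmt5b and Ccdc124 had the highest-fold input-touching peaks there. Neu4 and Sirt2 are lineage genes with an input-free peak, and Hes5 and Olig2 are lineage genes with an input-touching peak. Each run holds the 250 bases before the RefSeq start (GRCm38.p6, the RefSeq form of mm10), 5′ to 3′ on the gene's strand. Capitals mark any of 9 letter strings searched on both strands: CCGGAA (named ETS here), GCGCATGC (NRF1), AAGATGGCG (YY1), ACTACAATT (ZNF143), GGGCGG (SP), CCAAT (by that name), TGACGTCA (CRE), CAGCTG (E-box) and TATAAA (the TATA box); no string holds another.
Sfswap, chr5:129500981-129501230, plus strand: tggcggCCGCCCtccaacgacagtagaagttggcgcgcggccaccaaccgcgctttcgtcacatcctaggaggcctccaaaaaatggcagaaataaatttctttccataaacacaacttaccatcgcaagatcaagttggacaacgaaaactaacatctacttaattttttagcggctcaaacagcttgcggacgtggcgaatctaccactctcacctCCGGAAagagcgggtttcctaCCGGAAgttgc
Cwc27, chr13:104816954-104817203, minus strand: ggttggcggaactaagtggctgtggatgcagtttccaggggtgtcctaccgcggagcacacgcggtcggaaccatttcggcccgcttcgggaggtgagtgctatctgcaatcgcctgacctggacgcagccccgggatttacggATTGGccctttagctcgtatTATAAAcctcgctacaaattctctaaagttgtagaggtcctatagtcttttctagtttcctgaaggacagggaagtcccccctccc
Kmt5b, chr19:3767639-3767888, plus strand: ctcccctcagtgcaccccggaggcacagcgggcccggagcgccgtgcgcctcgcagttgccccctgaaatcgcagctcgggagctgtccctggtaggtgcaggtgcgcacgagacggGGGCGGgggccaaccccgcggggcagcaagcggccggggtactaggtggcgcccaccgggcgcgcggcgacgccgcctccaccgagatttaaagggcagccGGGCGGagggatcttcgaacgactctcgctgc
Ccdc124, chr8:70873491-70873740, minus strand: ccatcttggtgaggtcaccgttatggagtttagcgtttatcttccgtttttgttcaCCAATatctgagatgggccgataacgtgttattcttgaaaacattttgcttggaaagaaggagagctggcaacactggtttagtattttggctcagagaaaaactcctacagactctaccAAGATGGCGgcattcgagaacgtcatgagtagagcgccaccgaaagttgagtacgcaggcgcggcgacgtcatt
Neu4, chr1:94020243-94020492, plus strand: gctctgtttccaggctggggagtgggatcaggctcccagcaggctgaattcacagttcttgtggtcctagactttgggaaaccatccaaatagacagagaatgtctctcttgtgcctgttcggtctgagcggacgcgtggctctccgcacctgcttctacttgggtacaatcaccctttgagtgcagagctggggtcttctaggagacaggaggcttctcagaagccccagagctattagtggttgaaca
Sirt2, chr7:28766502-28766751, plus strand: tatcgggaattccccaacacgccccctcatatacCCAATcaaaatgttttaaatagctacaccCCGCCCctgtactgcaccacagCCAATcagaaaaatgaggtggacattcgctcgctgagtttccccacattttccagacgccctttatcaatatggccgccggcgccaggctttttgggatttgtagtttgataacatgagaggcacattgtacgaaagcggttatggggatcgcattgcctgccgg
Hes5, chr4:154960673-154960922, plus strand: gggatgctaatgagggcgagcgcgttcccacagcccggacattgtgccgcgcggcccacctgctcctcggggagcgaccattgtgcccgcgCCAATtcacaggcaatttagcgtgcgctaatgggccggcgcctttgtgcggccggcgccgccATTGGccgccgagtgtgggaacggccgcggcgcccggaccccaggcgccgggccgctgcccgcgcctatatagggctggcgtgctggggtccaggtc
Olig2, chr16:91225300-91225549, plus strand: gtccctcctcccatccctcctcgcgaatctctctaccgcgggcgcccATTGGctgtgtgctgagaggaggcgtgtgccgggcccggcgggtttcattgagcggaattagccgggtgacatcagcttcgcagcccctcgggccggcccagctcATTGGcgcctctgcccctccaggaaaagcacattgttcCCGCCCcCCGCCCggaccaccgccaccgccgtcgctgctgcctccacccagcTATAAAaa
Among these runs, the Sfswap promoter held 2 ETS strings, and the Ccdc124 promoter held the YY1 string. Neu4 held none of the 9 strings and 5 CpG, against 32 CpG in Hes5 and 31 in the Kmt5b stretch printed. The stretch of another Kmt5b start, not printed, held 11 CpG, with 152 of its 250 bases under the same Chd8 peak. The whole Sfswap, Cwc27, Neu4 and Sirt2 stretches lay under input-free Chd8 peaks. All 250 bases of the Ccdc124, Kmt5b, Hes5 and Olig2 stretches lay under input-touching peaks, of which the input peaks themselves covered 0, 179, 17 and 72 bases. The Ccdc124 peak was therefore input-touching although the input peak lay beside the printed stretch.

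The share of Chd8 peaks that touched the input was 40.4% (39.6 to 41.1). Input 1 and input 2, prepared for the Chd7 libraries by the labels, touched 16.9% (16.4 to 17.5) and 17.9% (17.4 to 18.5) of the same peaks, although their lists were longer (109486 and 178478 peaks against 91628). Both Chd7 lists showed the same order. Input 3 touched 35.0% of Chd7 replicate 1 peaks, against 16.0% for input 1 and 15.1% for input 2. For Chd7 replicate 2 it touched 52.9%, against 27.6% for input 1 and 33.4% for input 2. The larger overlap with input 3 was thus not particular to Chd8. The overlap covered a median of 69.9% of an input-touching peak's length, and 69.3% of these peaks were covered over at least 50% of it. The Chd8 midpoint itself lay in an input peak in 30.6% (30.0 to 31.3) of all peaks. The fold of a peak, a ratio over local background that the authors' caller gave, was nearly unrelated between Chd8 and the input peak it touched (Spearman rho 0.08 across 7413 peaks, which share their genomic position and are not replicates). Input peaks were mostly weak, whether touched or not: the median fold was 3.59 for those touching Chd8 and 3.49 for the others. Touched input peaks were wider, with a median of 504 bp against 266 bp. When input peaks below a −log10 q of 5 were left out, 0.212% (0.151 to 0.290) of Chd8 peaks touched one. Input-free peaks covered 4.38 Mb of the genome and input-touching peaks 4.36 Mb.

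Input-free peaks were narrower. Their median width was 320 bp (middle 50% of peaks 201 to 516), against 508 bp (306 to 779) for input-touching peaks. Widths of at least 1000 bp made up 4.06% (3.70 to 4.45) of the former and 12.5% (11.7 to 13.3) of the latter. The fold differed less, with medians of 4.32 and 4.71, and a fold of at least 5 was reached by 21.2% (20.4 to 21.9) and 38.4% (37.3 to 39.6). The lowest fold in both classes was 3.81, and 16 input-free and 47 input-touching peaks reached a fold of 10. Every percentile of width plotted was higher among input-touching peaks than among input-free peaks above the shared minimum of 99 bp.

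**Figure D1:**
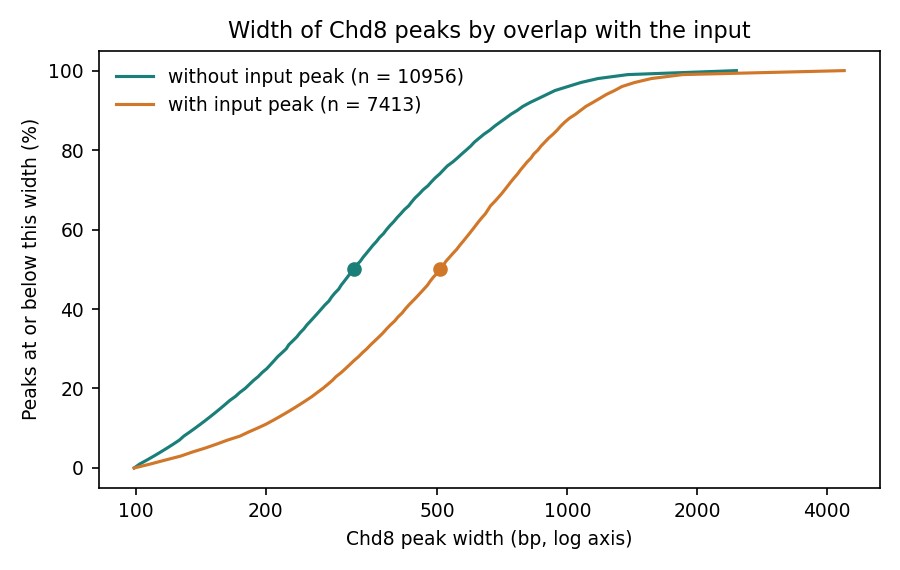
Cumulative share of Chd8 peaks (y, percent) at or below each width (x, bp, log axis) for input-free (teal) and input-touching (orange) peaks; points mark the medians of 320 and 508 bp. The orange curve lies to the right of the teal curve above the minimum width.

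Place separated the classes further. Peaks with a midpoint within 1 kb of a RefSeq start of a protein-coding gene made up 28.1% (27.2 to 28.9) of input-free peaks and 60.9% (59.8 to 62.0) of input-touching peaks. Peaks within 1 kb of another boundary of a coding gene, which includes genes with no start in the promoter table, made up 8.09% and 13.7%. The inside of coding genes held 35.6% (34.7 to 36.5) of input-free peaks and 15.0% (14.2 to 15.8) of input-touching peaks. The space up to 10 kb beside genes held 6.81% and 3.89%, and the space farther out held 21.4% (20.6 to 22.2) and 6.54% (5.99 to 7.13). Of the input 3 list itself 8.34% lay at start sites, and of the mock list 1 of 98 peaks did. Read the other way, an input peak was touched by 59.5% (58.4 to 60.6) of Chd8 peaks at start sites, 53.4% at other gene ends, 22.1% inside genes, 27.9% within 10 kb and 17.2% (15.8 to 18.6) farther out. Away from start sites the median distance to the nearest start was 53.7 kb for input-free and 35.8 kb for input-touching peaks.

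**Figure D2:**
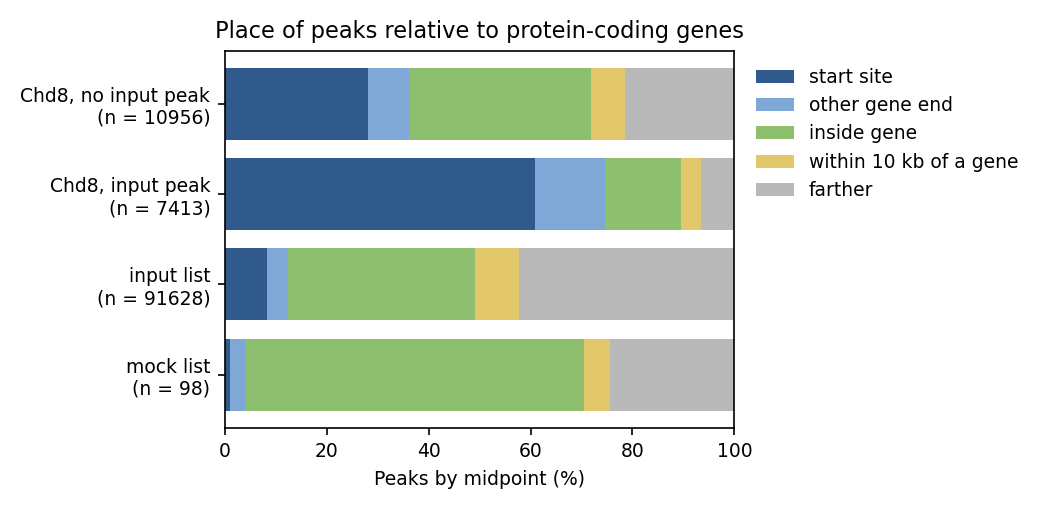
Share of peaks (x, percent, by midpoint) in 5 places relative to protein-coding genes, for input-free and input-touching Chd8 peaks, the input 3 list and the mock list, with the number of peaks beside each bar. Start sites take 60.9% of input-touching but 28.1% of input-free peaks.

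Wide peaks and start-site peaks were partly the same peaks, so the share touching the input was also read within 4 groups of about equal size by width. From the narrowest group (99 to 230 bp) to the widest (631 to 4389 bp) it was 23.9%, 32.8%, 44.5% and 60.3% over all places. At start sites it was 40.4% (37.6 to 43.1) in the narrowest and 73.0% (71.3 to 74.7) in the widest group, and elsewhere 17.7% (16.4 to 19.1) and 42.9% (40.7 to 45.2). The start-site value was above the value elsewhere in all 4 width groups and in all 4 fold groups, with intervals that did not overlap. In the lowest fold group the shares were 41.4% at start sites and 18.9% elsewhere, and in the highest 69.4% and 38.7%.

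**Figure D3:**
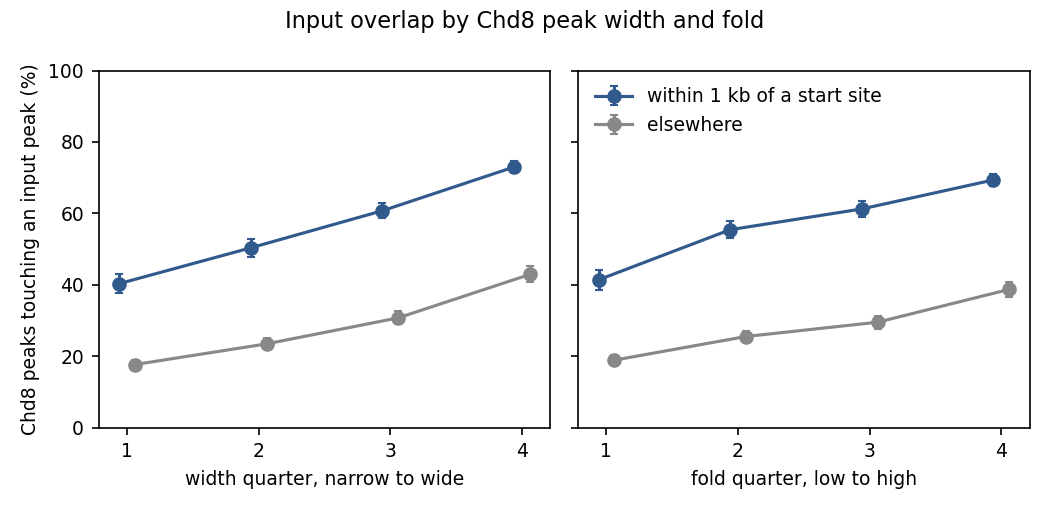
Share of Chd8 peaks touching an input 3 peak (y, percent, with 95% exact binomial intervals) in 4 groups by width (left, from 99 to 230 bp up to 631 to 4389 bp) and by fold (right), for peaks within 1 kb of a start site (blue) and elsewhere (grey). The blue points lie above the grey in each group, and both rise with width and with fold.

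Around the 21263 starts of the promoter table, input-free peaks covered 9.47% of positions at the start itself and input-touching peaks 19.7%. Input 3 peaks covered 23.0% there, and mock peaks covered none. Coverage by input-free peaks 200 bp upstream and downstream was 7.30% and 6.59%, and at 600 bp 2.37% and 2.66%, so the order of the sides depended on the distance. Input-touching peaks covered 16.1% and 15.3% at 200 bp. Midpoints of start-site peaks lay a median of 17 bp downstream for input-free and 23 bp downstream for input-touching peaks. The input covered 15.0% upstream and 22.2% downstream at 200 bp, and 6.39% and 10.3% at 600 bp. Start-site peaks covered a start in 56.7% (55.0 to 58.5) of input-free and 74.9% (73.6 to 76.2) of input-touching cases.

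**Figure D4:**
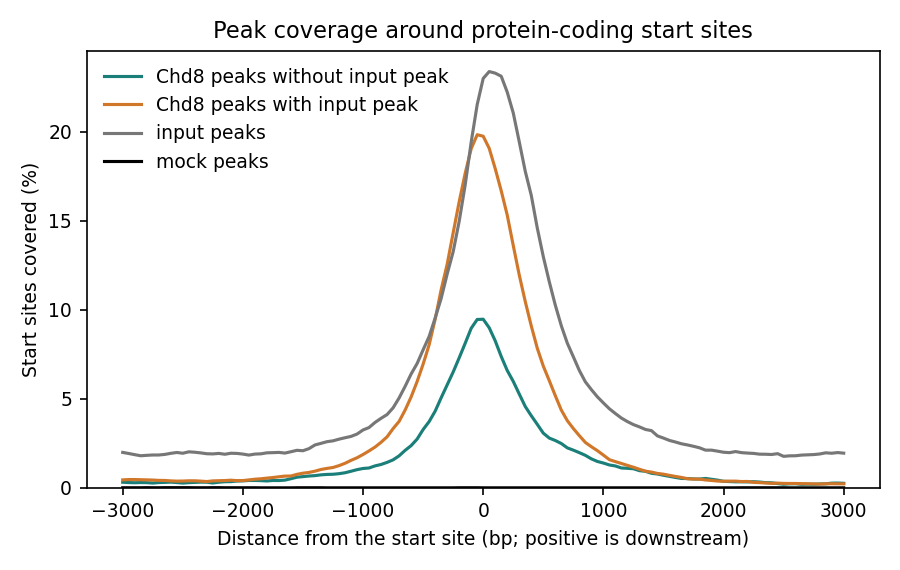
Share of 21263 protein-coding starts (y, percent) covered by input-free Chd8 peaks (teal), input-touching Chd8 peaks (orange), input 3 peaks (grey) and mock peaks (black) at each distance from the start (x, bp, positive is downstream). At the start the values are 9.47%, 19.7%, 23.0% and 0.

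Promoter sequence was read in the 300 bases of the RefSeq table (250 before and 50 after the start). Promoters under an input-free Chd8 peak (2601) had a median of 20 CpG and a GC content of 59.0%, and those under an input-touching peak (4859) had 23 CpG and 62.3%. All 21263 promoters had a median of 13 CpG, and those with neither a Chd8 nor an input peak (12055) had 5. Promoters with an input peak but no Chd8 peak (1748) had 19 CpG and 62.7% GC. The ETS string CCGGAA was in 33.3% (31.4 to 35.1) of input-free and 36.7% (35.3 to 38.1) of input-touching Chd8 promoters, against 18.2% (16.4 to 20.1) of promoters with input alone and 18.7% of all. The YY1 string was in 4.11% and 4.61% of the Chd8 promoters, 0.801% of those with input alone and 1.83% of all, and the NRF1 string in 6.77%, 7.39%, 2.29% and 3.52%. ACTACAATT, part of the site of ZNF143 (a factor that CHD8 has been described to bind), was in 1.42% (1.00 to 1.96), 0.844% (0.606 to 1.14), 0.172% and 0.508% in the same order. The GC-rich string GGGCGG was in 60.1%, 69.6%, 65.8% and 46.2%. Thus the ETS, YY1 and NRF1 strings were found at lower shares in promoters with input alone than in either Chd8 class. Between the Chd8 classes the intervals of YY1 and NRF1 overlapped. The ETS share was somewhat lower in input-free than in input-touching promoters, with intervals that did not overlap. GGGCGG was not lower with input alone than in input-free promoters. A match describes letters only. When promoters were grouped by CpG number, the input-free share of those with Chd8 was 63.9% (51.7 to 74.9) at 0 to 3 CpG. It was 68.8% (63.7 to 73.5) at 4 to 8 CpG and 41.0% (38.9 to 43.1) at 9 to 18. At 19 to 27 CpG it was 28.1% (26.4 to 29.8), and at 28 to 67 CpG 30.5% (28.5 to 32.5). In the same order, input 3 peaks lay at 1.79%, 8.20%, 36.0%, 55.9% and 44.6% of all promoters in the group. The input-free share was thus high where the input list had few peaks.

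Gene classes were read at gene ends, with any base of a peak within 1 kb of either boundary. Over the 21887 protein-coding genes, 41.0% had any Chd8 peak, 16.7% an input-free peak, 24.2% only input-touching peaks and 45.2% an input 3 peak, which are the background for all lists that follow. Histone genes encode the proteins of the nucleosome and sit mostly in clusters (53 of 78 on chromosome 13). Of these 78 genes, 60 had Chd8 at an end: 42 had only input-free peaks, 16 only input-touching peaks and 2 both. The input itself was at 21 of these 78 genes, 26.9% (17.5 to 38.2). These genes share peaks: 49 separate Chd8 peaks lay there, of which 14, 28.6% (16.6 to 43.3), touched the input. Of 408 tRNA genes, which RNA polymerase III transcribes, 50 had an input-free and 43 an input-touching Chd8 peak over the gene body, 22.8% (18.8 to 27.2) together, while an input peak covered 13, 3.19% (1.71 to 5.39). These came from 75 separate peaks, of which 32 touched the input, and most of the 43 tRNA genes under an input-touching peak had no input peak on the gene itself. Long noncoding RNA genes over 5 kb from any coding gene had an input-free peak alone at 4.33% (3.85 to 4.86) and an input-touching peak alone at 1.60% (1.31 to 1.94). Any Chd8 peak was at 6.08% (5.51 to 6.68) of them, and an input peak at more, 12.6% (11.8 to 13.5). Of 1110 olfactory receptor genes, largely silent outside the nose, 2 had a Chd8 peak, 0.180% (0.0218 to 0.649), against 2.25% (1.46 to 3.31) with an input peak.

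More OPC identity genes had an input-free than an input-touching peak at an end. Of 28 members, 12 had only input-free peaks at an end, 5 both kinds, 6 only input-touching peaks and 5 none, so 17 of 28, 60.7% (40.6 to 78.5), had an input-free peak, beside 16.7% of all coding genes. An input 3 peak also lay at an end of 17 of the 28, and 8 members, 28.6% (13.2 to 48.7), had an input-free Chd8 peak and no input peak at either end, beside 10.8% of all coding genes. With Chd8 peaks of a fold of at least 5 alone the 17 became 5, and with a −log10 q of at least 5 it became 3. The list's median fold was 4.59, against 4.85 over all coding genes with a peak. The highest input-free folds at ends were 6.36 at C1ql1 (a secreted complement-like protein), 6.10 at Neu4 (a sialidase) and 5.94 at Gpr17 (a receptor of committed precursors). The highest input-touching folds were 6.47 at Hes5 (a Notch target that keeps progenitors undifferentiated), 5.34 at Olig2 (the lineage's bHLH factor) and 4.85 at Sox5 (a SOX factor that delays differentiation). Of 35 genes of oligodendrocyte differentiation and myelin, 10 had only input-free peaks, 6 only input-touching peaks and 19 none, with a median fold of 4.29. The 10 became 1 with a fold of at least 5 and 0 with a −log10 q of at least 5. Over all coding genes an input-free peak was then present at 5.35% and 2.36%. Sirt2 (a deacetylase of myelinating cells) led its input-free members at 5.21, followed by Zfp536 at 4.71 and Gal3st1 (sulfatide synthesis) at 4.53. Qk (an RNA-binding protein of myelin transcripts) led the input-touching members at 4.63, followed by Fyn (a kinase of process outgrowth) at 4.61 and Sox8 at 4.25.

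Markers of other cell types that the sort could hold were counted in the same way. None of 30 endothelial and mural markers had a Chd8 peak at an end (0 to 11.6%), although 11 had an input peak. Of 25 microglia markers 3 had an input-free and 1 an input-touching peak. Of 33 neuron markers 6 had an input-free and 1 an input-touching peak, with Snap25 at 5.26 and Tubb3 at 4.33; of the 6, 1 was left with a fold of at least 5 and 0 with a −log10 q of at least 5. Astrocyte markers had 4 input-free only, 2 both and 5 input-touching only of 22, with S100b (also made by oligodendrocyte cells) at 4.94 and Slc1a3 at 4.29. Hepatocyte genes, foreign to this tissue, had 2 input-free of 25, at Apoa1 and Apoa2. Both of these genes also had an input 3 peak at an end, as did 9 of the 25 in all. Peaks do not measure expression, and the part of other cell types in these counts was not tested.

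In housekeeping and metabolic lists, as over all coding genes, more members had input-touching than input-free peaks. Among genes with any Chd8 peak, an input-free peak was present at 40.8% (39.8 to 41.8) of all coding genes, 22.5% (10.8 to 38.5) of splicing, 22.2% (6.41 to 47.6) of cholesterol synthesis, 30.0% (14.7 to 49.4) of oxidative phosphorylation, 35.1% (24.4 to 47.1) of ribosomal protein and 38.5% (20.2 to 59.4) of cell cycle genes. The intervals of all but the splicing list held the value of all coding genes. The split rests on the input used: with input 2 (the input of Chd8 if the track names are followed), members with an input-free peak numbered 26 in place of 9 for splicing, 52 in place of 26 for ribosomal proteins, 21 in place of 9 for oxidative phosphorylation, 21 in place of 10 for the cell cycle and 10 in place of 4 for cholesterol synthesis. Over all coding genes with a peak the share was then 71.01%. A reciprocal overlap of 50% gave 20 splicing and 50 ribosomal protein genes, beside 69.6% of all coding genes with a peak. Of 41 splicing genes, 31 had only input-touching peaks, 8 only input-free peaks, 1 both and 1 none; Prpf31 (a spliceosome subunit) led the input-free members at 7.42 and Ptbp1 (a splicing repressor) the input-touching at 10.6. Cytosolic ribosomal protein genes had only input-touching peaks at 48 of 78, only input-free peaks at 20, both at 6 and none at 4, with a median fold of 5.93. Rpl4 led with 7.44 without input and Rps12 with 9.39 with input. Nuclear genes of oxidative phosphorylation had 21 input-touching, 9 input-free and 5 without a peak of 35, led by Ndufs1 (11.9) and Ndufb3 (9.43), both of complex I. Cholesterol synthesis genes, whose product myelin needs in bulk, had 14 input-touching, 4 input-free and 6 without a peak of 24, led by Cyp51 (8.90) and Acat2 (5.97). Cell cycle genes had 16 only input-touching, 9 only input-free, 1 both and 12 none of 38, led by Mcm7 (12.9) and Aurka (7.20).

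Lists tied to known roles of Chd8 varied. Chromatin regulators had 31 only input-touching, 10 only input-free, 4 both and 11 none of 56, with Kmt5b (23.6) and Kmt2a (6.59) highest. Their members with an input-free peak numbered 28 in place of 14 with input 2, or where the input had to cover 50% of the Chd8 peak. Autism risk genes outside the chromatin regulators had 14 only input-free, 14 only input-touching, 6 both and 16 none of 50, with Adnp (10.9, input-touching) and Phf12 (9.73, input-free) highest. Of 33 genes of the p53 pathway and apoptosis, 15 had only input-touching peaks, 2 only input-free peaks, 2 both and 14 none, and with input 2 the members with an input-free peak numbered 13 in place of 4. Bad (a cell-death promoter) had the highest input-touching fold of that list, 5.57, and Trp53 the highest input-free fold, 5.03. That Trp53 peak lay 12.2 kb past the start, at the other end of the gene. The Trp53 peak with its midpoint 0.673 kb past the start (fold 5.46) touched the input. Members of the Notch, Wnt and Hedgehog pathways had 16 input-touching, 11 input-free and 17 without a peak of 44, with Notch2 (a receptor, 6.60) and Ctnnb1 (beta-catenin, 8.08) highest.

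**Figure D5:**
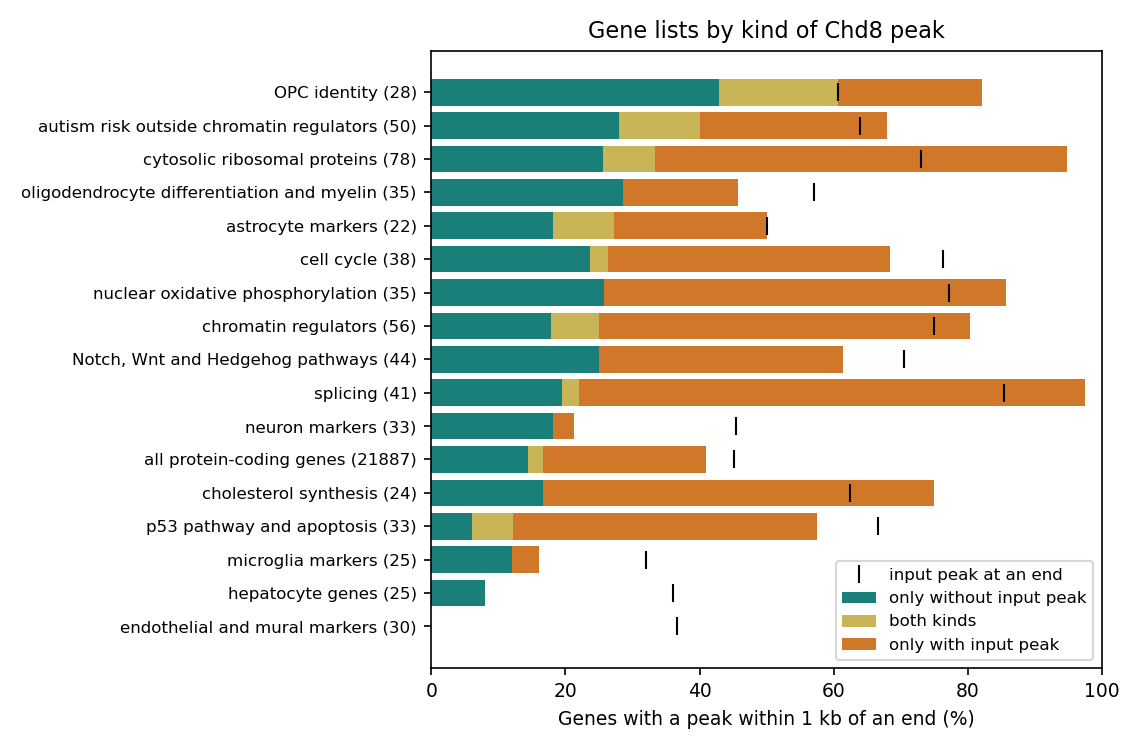
Share of each gene list (x, percent; number of genes in brackets) with only input-free Chd8 peaks (teal), both kinds (yellow) or only input-touching peaks (orange) within 1 kb of a gene end; black ticks mark genes with an input 3 peak there. Lists are ordered by the share with an input-free peak, which is 60.7% for OPC identity and 16.7% for all protein-coding genes.

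The loci of the lineage regulators differed in kind. A locus was the gene with 10 kb on each side. Gpr17 held 7 input-free peaks and no input-touching peak; the strongest, fold 6.47 at chr18:31953345-31954069, lay beyond the gene, and 4 were at the lowest fold of 3.81. Olig2 held 6 input-touching peaks and 1 input-free peak, and its strongest peak, fold 6.88 at chr16:91232868-91234309, lay about 8.04 kb past the start and touched an input peak of fold 3.71. Olig1, next to Olig2, held 3 input-free and 2 input-touching peaks, led by an input-free peak of fold 5.33. Sox10 held 3 and 2, and Pdgfra (the PDGF receptor of OPCs) 3 and 1, with its strongest peak, fold 5.55, input-free inside the gene at chr5:75162738-75164026. Cspg4 (the NG2 proteoglycan) held 1 input-free and 5 input-touching peaks inside the gene and none at an end. Nkx2-2 (a differentiation factor) held 3 and 5. Among myelin genes, Mbp held 5 input-free peaks inside the gene and 1 input-touching peak at an end, and Myrf held 1 input-touching peak. Trp53 held 2 and 2, and Cdkn1a, a p53 target, 1 input-free peak of fold 4.63. Chd7 held 6 input-free peaks with folds from 3.81 to 5.28 and none with input. At Chd8 itself the peak at the start (fold 6.92) and a peak beyond the other end (5.49) touched the input, and 1 inside the gene (5.94) did not.

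Away from gene ends, input-free peaks prevailed over all coding loci, with 5399 against 1805 input-touching peaks, each counted once per locus. The OPC list had 68 and 24, and the differentiation and myelin list 42 and 10. Other lists had too few such peaks to read a direction. These were cell cycle (3 and 4), splicing (2 and 3), cholesterol synthesis (0 and 3), ribosomal proteins (5 and 3) and oxidative phosphorylation (5 and 4). At least 1 input-free peak away from gene ends was found at the loci of 25 of 28 OPC identity genes and 17 of 35 differentiation and myelin genes, beside 15.3% of all coding genes. Per Mb of locus there were 12.1 in the OPC list and 14.8 in the myelin list, against 3.63 over all coding genes, 9.67 for astrocyte, 5.51 for neuron and 0.439 for endothelial markers, 8.51 for the Notch, Wnt and Hedgehog list, 8.32 for chromatin regulators and 6.05 for autism risk genes. Of the 50 autism risk loci, 26 held such a peak, a larger share (52.0%) than in the myelin list (48.6%). Over all coding genes, 114 loci held 5 or more input-free peaks of this kind and 10 held 5 or more input-touching peaks. The fullest loci, chosen after their values were seen, were Nav2 and Nfia with 13 each. Nav2 is a long cytoskeletal gene of 651.0 kb and Nfia a gene for a glial transcription factor of 540.8 kb. Tnr (tenascin R, made by oligodendrocyte cells) held 10 and no input-touching peak.

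Among the highest-fold input-free peaks at gene ends, Sfswap (a splicing regulator) had 13.1 at chr5:129500785-129501488, and the ends shared by Cwc27 (a spliceosome protein) and Srek1ip1 had 12.5 at chr13:104816692-104817853. The next were Med25 (Mediator) at 12.3, Cacybp at 11.9, Cradd (a death-domain adaptor) at 11.7, the ends of Ccni (cyclin I) and 2010109A12Rik at 11.2, and Zfp866 at 10.9. Mrpl13 with Mtbp, and Mrpl1, had 10.8 each, and both Mrpl genes encode mitochondrial ribosomal proteins. Input-touching peaks reached higher. Kmt5b (a histone H4 lysine methyltransferase) had fold 23.6 over 1885 bp at chr19:3767269-3769153, of which the input covered 24.7%. Ccdc124 (a ribosome-binding protein) had 20.1 at chr8:70873417-70874133, with 16.0% covered. Nuf2 (kinetochore) at 15.6, Fbxo36 at 14.8, Septin7 at 14.3, Gnb2 at 14.0, Zc3h6 at 14.0, Mcm7 with Ap4m1 at 12.9, Wdr75 (ribosome biogenesis) at 12.9 and Ufc1 (the E2 enzyme of UFM1 conjugation) at 12.7 followed. The input peaks under these 10 had folds of only 3.48 to 4.46, although they covered up to 100% of the Chd8 peak, as at Septin7.

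The widest peaks also split by class. Among input-free peaks the widest was 2467 bp, in the space beside Tes (65.4 kb away), then, among others, 2421 bp at the imprinted genes Peg3 and Usp29, 2259 bp at Negr1 and 2244 bp at Phldb1. Input-touching peaks reached 4389 bp at Brd2 and H2-DMa, 4314 bp in Tnrc18, 4284 bp at Marcks, 3549 bp at Kmt2e (a chromatin regulator) and 3467 bp at Jun. At Marcks the input covered 4.13% of the Chd8 peak, and at Brd2 76.2%. Input-free peaks over 10 kb from any annotated gene numbered 1132, 10.3% (9.77 to 10.9) of the class, against 182, 2.46% (2.11 to 2.83), of input-touching peaks. The strongest of the former were nearest to Lpin1 (fold 8.83), Adamts9 (8.72), Sqor (8.54), Lgalsl (8.33) and Igsf11 (8.26) among coding genes, at 20.2 to 540.5 kb.

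Chromosome X differed from the autosomes. Of 316 Chd8 peaks there, 38 touched the input, 12.03% (8.65 to 16.1), against 40.8% (40.1 to 41.6) on autosomes. At start sites the values were 11.5% (7.16 to 17.2) of 174 peaks and 60.6% (59.5 to 61.7) of 7415. Chromosome X held 2.60% of the input 3 list and 1.72% of Chd8 peaks.

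Chd7 replicate 1 had its own mock and input and was independent of the libraries used to split the Chd8 peaks. It touched 21.0% (20.2 to 21.8) of input-free and 24.2% (23.2 to 25.2) of input-touching Chd8 peaks. In turn 43.8% of its 5282 peaks touched an input-free Chd8 peak and 34.4% an input-touching one. Inside genes the shares of Chd8 peaks were 24.6% (23.2 to 26.0) and 23.5% (21.0 to 26.1), and farther than 10 kb from genes 26.6% (24.8 to 28.4) and 26.6% (22.7 to 30.8). The counting intervals of the classes overlapped at both places. At the other 3 places they did not: the shares were 14.8% (13.6 to 16.1) and 24.7% (23.4 to 26.0) at start sites, 14.4% (12.2 to 16.9) and 20.9% (18.4 to 23.5) at other gene ends, and 18.1% (15.4 to 21.1) and 26.4% (21.4 to 31.9) within 10 kb of a gene. Input-touching peaks were wider at every place, with medians of 559 against 383 bp at start sites and 377 against 296 bp inside genes. A wider peak has more room to touch a Chd7 peak, and the Chd7 shares were not read within width groups. Chd7 replicate 2 shares its mock with the Chd8 library, so its values are given as a description only. It touched 10.2% (9.60 to 10.7) of input-free and 37.2% (36.1 to 38.4) of input-touching Chd8 peaks, with 6.68% and 24.1% inside genes and 5.51% and 29.3% farther than 10 kb from genes. The near-equal shares of replicate 1 at those places were therefore not seen in replicate 2. Input 3 itself touched 35.0% of the replicate 1 list and 52.9% of the replicate 2 list.

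The 46 peaks dropped for the mock were of another kind. Of these, 45 also touched input 3 and 41 the other mock of the series, and 1 lay at a start site. Their folds ran from 4.26 to 758.7 with a median of 10.9, and 9 of them lay above the highest fold kept. The highest was at chr2:98666240-98667335, with fold 375.9 in the mock, and 1 of 5840 bp lay next to the ribosomal RNA gene Rn18s-rs5 at chr17:39842993-39848832 with fold 72.2. The other 3 among the highest 5 outside that chromosome 2 stretch lay 137.4 kb from Rab10 (fold 210.4), in Chl1 (163.2) and 29.4 kb from Rpusd4 (129.9). A few kept peaks resembled them: the highest fold kept, 33.7 over 107 bp at chrX:143483003-143483109, touched an input peak of fold 97.3. A further 3 at the proximal end of chromosome 9, the nearest coding gene being Alkbh8, touched input peaks of fold 42.7 to 45.4. The other mock touched 19 more of the 18369 kept peaks, 0.103%.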

How the data were processed

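ChIP-seq peak lists of 8 libraries from O4-positive mouse cells were used, 1 broadPeak list each on mm10. Bowtie2, SAMtools, Picard and MACS are named, per the submitters' processing notes; their versions and settings and the control of each call were not given in the sources used here. Each peak has a deposited score, and its fold (a ratio over local background), −log10 p and −log10 q also come from the authors. The lowest −log10 q was 1.81 in the Chd8 list and 1.30 in input 3. The authors dropped peaks by steps not given here, since peak numbers run to 21436 for Chd8 and 264855 for input 3.

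Overlaps, places and lists were computed with Python 3.11.15, numpy 2.4.6, pandas 2.3.3 and scipy 1.17.1, and the overlap code was tested on simulated data. Genes were 21887 protein-coding RefSeq genes; 17492 have a start in the promoter table (21263 starts), and the others were read by boundaries alone. All 594 genes of the 16 lists matched by symbol. The members and lists were chosen with earlier results of these data known. Named were, in each class, the 10 highest folds at ends, the 5 widest peaks, the top 3 members of both lineage lists and the top member of the others, the 5 highest input-free folds over 10 kb from any gene, 14 regulators whatever their values, and the genes at the 5 highest dropped peaks; some that this names are not reported here. No test was run, since Chd8 has 1 library. Alternatives changed thresholds, overlap rule, input, mock, window and widths (16 settings).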

Additional observations from a re-analysis of the deposited data

How the results depend on the processing

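Depth is unknown, and 1 Chd8 library gives no error, so stability here means only that a value moved by less than its counting interval. No paired analysis was possible because Chd8 has 1 library and no result comes from a test. The share of Chd8 peaks touching the input was 40.4%, the start-site share of input-free minus input-touching peaks −32.83 percentage points, and the ratios of their median widths and folds 0.630 and 0.917. In the same order, the values were 60.0%, −25.26, 0.843 and 0.986 with a Chd8 −log10 q of at least 5; 11.8%, −24.21 and 0.712 with the highest-fold input peaks, as many as Chd8 peaks; 27.6%, −29.40, 0.780 and 0.938 with 50% of the Chd8 peak covered; 30.6%, −30.82 and 0.710 by midpoint. A reciprocal overlap of 50% gave 18.9%, −30.55, 0.596 and 0.896. Input 1 in place of input 3, chosen after seeing the data, gave 16.9%, −30.63, 0.578 and 0.898. With a Chd8 fold of at least 5 the share was 55.1% and the ratios 0.775 and 0.979. Input 2 gave a share of 17.9% and a width ratio of 0.603, and any of the 3 inputs a share of 46.3% and a difference of −36.62. Peaks of middle widths gave a difference of −29.97 and ratios of 0.886 and 0.951. Leaving out input peaks below a −log10 q of 5 turned the start-site difference to 36.27 and the width ratio to 1.37, with a share of 0.212% and a fold ratio of 0.846; few peaks then touched the input. Mock handling and sex chromosomes moved none of these 4 values beyond its interval, and neither window setting, run for the start-site difference alone, moved that. Of 224 list counts under the alternatives, 130 stayed within 1.5 times the count reported and 94 did not.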
